A study of Mus musculus with 6 samples.

Results

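The HOX genes are homeobox transcription factor genes that lie in 4 chromosomal clusters, Hoxa, Hoxb, Hoxc and Hoxd. They were taken from the deposited expression table by symbol, as every row named Hoxa, Hoxb, Hoxc or Hoxd followed by a paralog number, which gave 39 genes among 24341 (11 in Hoxa, 10 in Hoxb, 9 in Hoxc and 9 in Hoxd). RNA-seq was done on whole lungs of C57BL/6 embryos of embryonic day E12.5, with 3 libraries in each group. Control lungs were Shh-Cre;Sin3a flox/+ and mutant lungs Shh-Cre;Sin3a flox/flox, so both groups carried the Cre and at least 1 floxed allele, and the controls kept 1 allele without loxP sites. The Shh-driven Cre acts in the lung epithelium, whereas each library held RNA of every cell type of the organ. Values are FPKM, fragments scaled to transcript length and to the number of mapped fragments, so levels can be compared between genes.

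Genes of a HOX cluster are numbered by paralog group, and low numbers are used toward the head and high numbers toward the tail of the embryo. HOX proteins bind DNA with TALE homeodomain partners of the PBX and MEIS families. In the lung, HOX genes are known mainly from the mesenchyme, and Hoxa5 and its paralogs are known from work on airway and lung development. Sin3a encodes the scaffold of a histone deacetylase corepressor complex.

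Sin3a itself measured 19.5, 18.64 and 18.65 FPKM in control libraries 1 to 3 and 18.8, 16.3 and 18.8 FPKM in mutant libraries 1 to 3 (log2 change -0.07, adjusted p = 0.68). The floxed exons are not given in the labels and the RNA is of mixed cells, so this level is no check of genotype. Depth relative to control library 1, estimated from low values, was 0.506 in mutant library 1 and 0.532 in control library 3, and 0.807 to 1.28 in the other libraries. Absolute depth is unknown. Nothing in the labels says whether the libraries came from separate embryos or litters, so the p-values measure the spread between these samples. A lung marker check found lung epithelium genes at 553 to 588 summed FPKM in controls and 328 to 382.5 FPKM in mutants (9 of 14 tested members lower, 0 higher, of 15 listed). The median log2 change of the tested epithelium genes was -1.07. Id2, which overlapped between the groups, made up a large part of these sums. It measured 199, 222 and 168 FPKM in controls and 253, 224 and 165 FPKM in mutants. Lung mesenchyme genes summed to 1142 to 1359 FPKM in controls and 1664 to 1929 FPKM in mutants (4 of 17 higher, 2 lower). Its 3 collagen genes summed to 625 to 839 FPKM in controls and 1062 to 1342 FPKM in mutants, and the other 14 genes to 517 to 519.5 and 582 to 602 FPKM. The members called lower were Foxf1 (71.2 against 34.6 FPKM by means, adjusted p = 0.0054) and Wnt2 (87.5 against 49.4 FPKM, adjusted p = 0.0056). Spinal cord and somite genes summed to 22.6 to 37.0 FPKM in controls and 19.1 to 22.75 FPKM in mutants (5 of 12 tested, 0 called and 0 at an unadjusted p under 0.05 in limma). Levels differed widely within this list. Olig2 was listed at 0.01 FPKM, the floor of the table, in each of the 6 libraries. Isl1 measured 10.7, 16.3 and 11.35 FPKM in controls and 11.8, 12.3 and 11.6 FPKM in mutants. Myog measured 4.96, 9.345 and 0.766 FPKM in controls and 0.999, 2.17 and 0.794 FPKM in mutants. Neural crest and intrinsic neuron genes summed to 33.9 to 66.5 FPKM in controls and 34.3 to 48.35 FPKM in mutants (9 of 10 tested, 0 called and 0 at an unadjusted p under 0.05). Macrophage genes summed to 115 to 145 FPKM in controls and 189 to 253 FPKM in mutants (2 of 9 higher), and heart genes to 156 to 204 and 255.5 to 364 FPKM (1 of 4 tested higher, of 8 listed). Erythroid genes summed to 22990 to 45790 FPKM in controls and 14690 to 19790 FPKM in mutants (2 of 10 lower). Of the other lists, 1 of 9 endothelial and 1 of 5 tested mesothelial genes (6 listed) were higher, and of 8 oesophagus and stomach genes 3 were tested and 0 called (2 at an unadjusted p under 0.05). Beside these counts, 1.71% of all 12742 tested genes were called higher and 1.63% lower.

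HOX levels at E12.5 were concentrated at low paralog numbers. Of the 20 members with paralog numbers 1 to 7, 16 averaged at least 1 FPKM across the 6 libraries, and of the 19 with numbers 8 to 13 there were 0. The 16 genes past this filter were tested, and the other 23 are described by their values. Hoxa5 was the most abundant member in every library and held 24.9% to 26.5% of all HOX FPKM in controls and 27.9% to 31.2% in mutants. Paralog groups 4 and 5 together held 53.2% to 54.0% of HOX FPKM in controls and 54.9% to 58.8% in mutants. The 16 members with numbers 9 to 13 together held 0.0574% to 0.207% in controls and 0.207% to 0.321% in mutants.

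**Figure D1:**
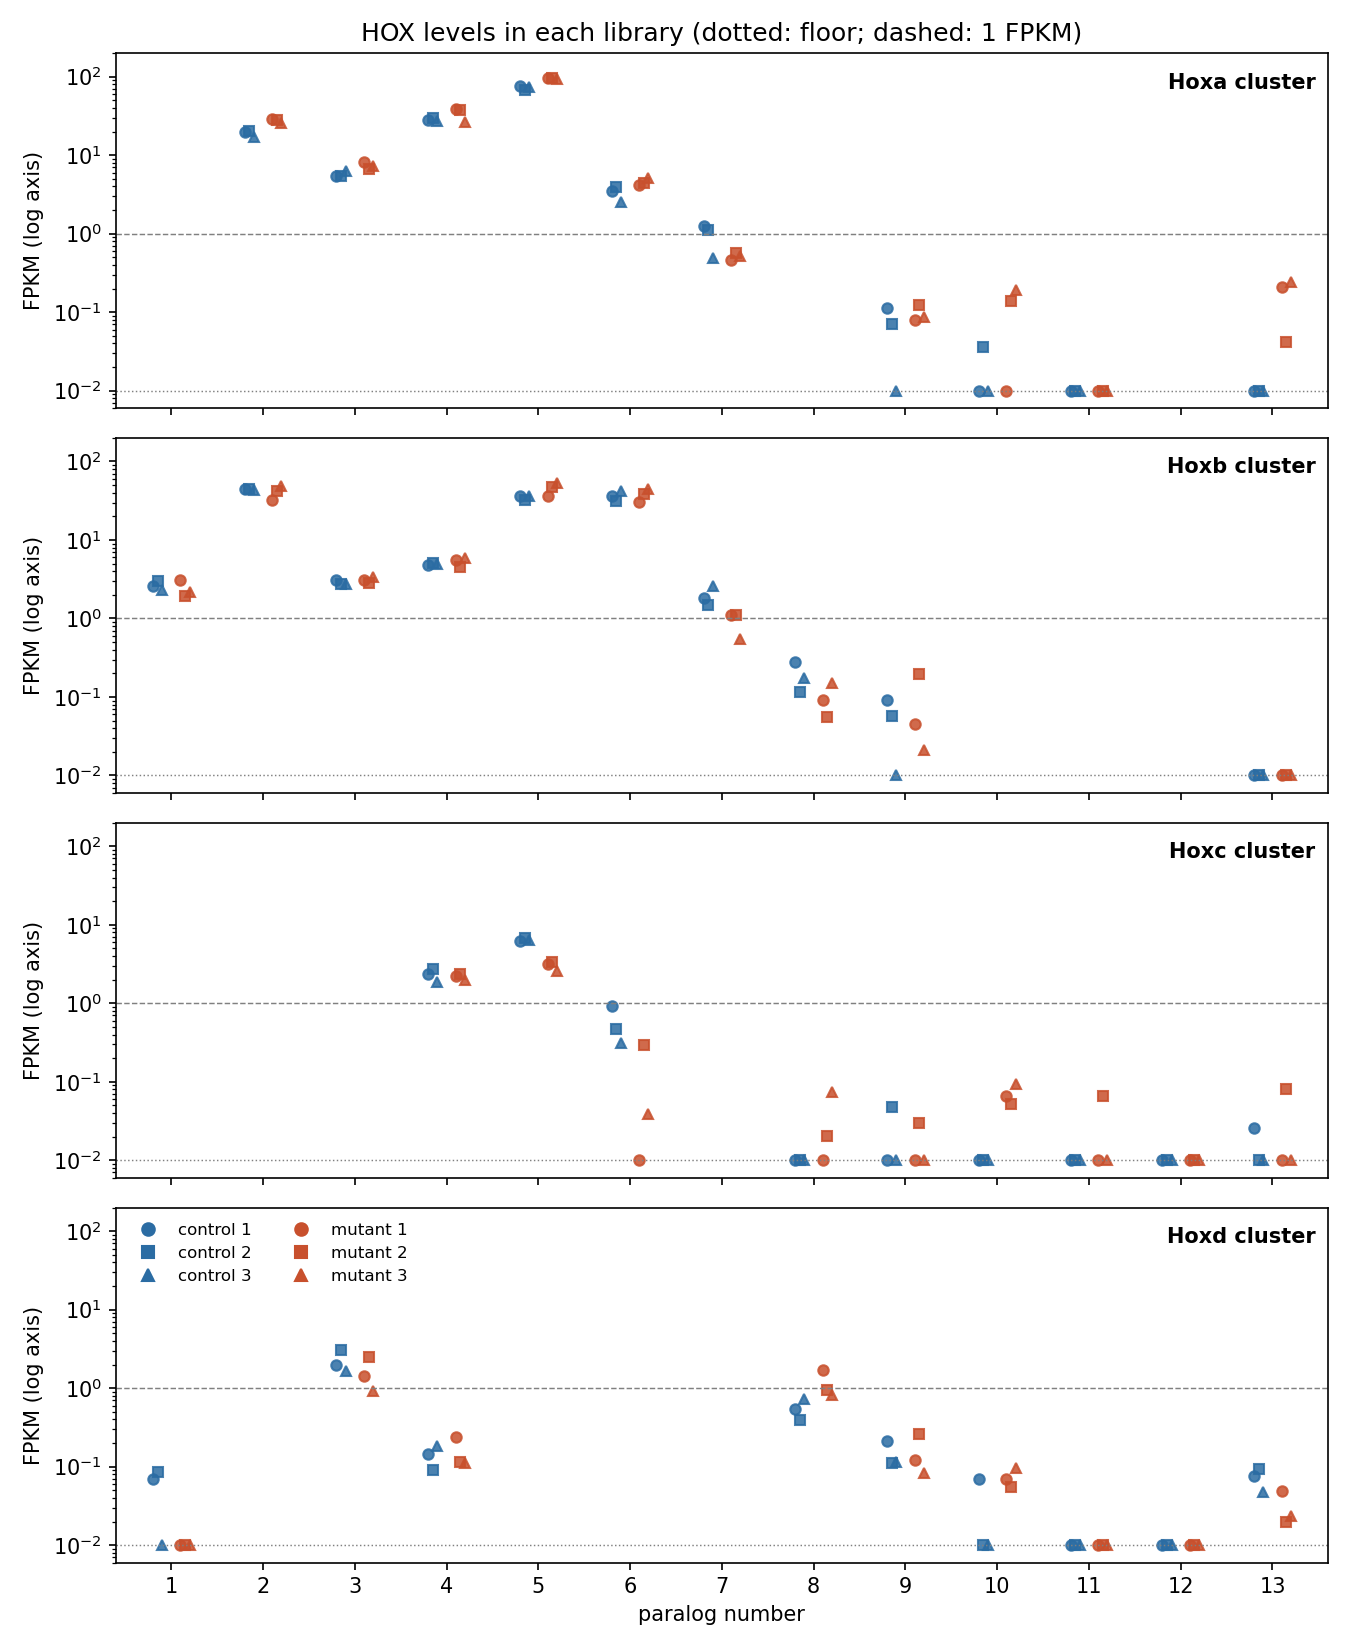
FPKM of the HOX genes reported here in each of the 6 libraries, on a log axis, by paralog number and cluster; colours mark the group and symbols the replicate number. Hoxa5 is highest in every library, at up to 96.6 FPKM, and values at numbers 9 to 13 lie at or under 0.260 FPKM.

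In control lungs the order of levels began with Hoxa5 at 71.8 FPKM (mean of 3), then Hoxb2 at 43.9, Hoxb6 at 36.6, Hoxb5 at 35.1, Hoxa4 at 28.35 and Hoxa2 at 19.2 FPKM. Hoxb6 and Hoxb5 overlapped between control libraries, and the other neighbours among these 6 did not. Further down were Hoxc5 at 6.425 and Hoxa3 at 5.73 FPKM, which overlapped. Hoxb4 stood next at 4.91 FPKM, apart from both of its neighbours. From Hoxa6 at 3.30 FPKM down to Hoxb7 at 1.96 FPKM, through Hoxb3, Hoxb1, Hoxc4 and Hoxd3, each gene overlapped the next. By means in mutant lungs, Hoxc5 moved from place 8 to place 12 and Hoxb5 from place 4 to place 2. These mutant places overlapped between libraries, Hoxc5 with Hoxb3 and Hoxb5 with Hoxb2. In mutant library 1, Hoxa4 (38.2 FPKM) lay above Hoxb5 (36.2 FPKM).

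Between the genotypes, Hoxa2 and Hoxa5 were higher in mutants and Hoxc5 was lower. All 6 tested Hoxa genes had positive changes, by 1.20 to 1.43 times, and so did 6209 of all 12742 tested genes. Hoxa4 among them overlapped between the groups. Hoxa7, under the filter, was lower by means (0.949 FPKM in controls, 0.514 FPKM in mutants), with overlap. Hoxc5 was 2.12-fold lower. Of the 16 tested HOX genes 2 rose, against 1.71% of all 12742 tested genes, and 1 fell, against 1.63% of all, which makes 3 calls of 16 beside 3.34% of all tested genes. The log2 change was positive for 10 and negative for 6, with a median of 0.081, beside -0.0082 over all tested genes. Groups did not overlap, with mutants above, for 5 HOX genes (14.9% of all tested genes) and, with mutants below, for 2 (14.6% of all). Calls are at an adjusted p under 0.05 in limma on log2(FPKM + 1), a scale that understates the change of low genes. In bulk RNA, fewer cells of a type and less RNA per cell cannot be told apart, and the part of the lower epithelial markers and of the mesenchymal markers, which moved in both directions, in these differences was not tested. An exact permutation test of 3 against 3 libraries cannot go below p = 0.1 for any one gene.

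**Figure D2:**
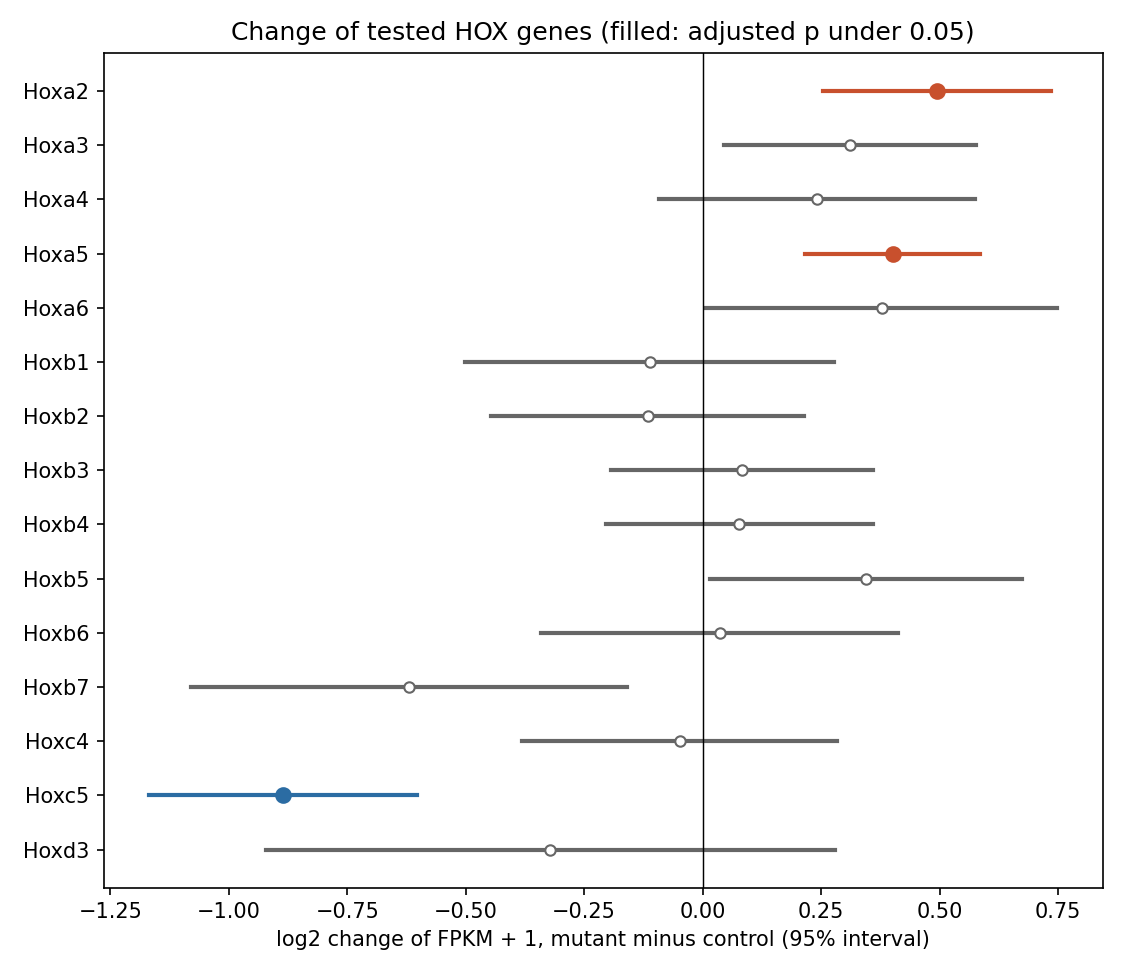
Log2 change of FPKM + 1 (mutant minus control) with its 95% interval for the tested HOX genes reported here, ordered by cluster and paralog number; filled points passed an adjusted p of 0.05. Hoxa2 and Hoxa5 lie above 0 and Hoxc5 lies at -0.89, while every Hoxa estimate drawn is above 0.

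The cluster with the higher levels is described first. Hoxa2, known for patterning the hindbrain and second pharyngeal arch, lies on chromosome 6 from 52162417 to 52164831 (mm10) and measured 19.85, 20.6 and 17.1 FPKM in control libraries 1 to 3 and 28.8, 28.0 and 25.4 FPKM in mutant libraries 1 to 3. Every mutant library lay above every control library. The log2 change was 0.50 (SE 0.10, 95% interval 0.25 to 0.74, n = 3 per group, limma adjusted p = 0.0499), a 1.43-fold rise. Hoxa5, known for its part in airway and lung formation, measured 75.1, 67.2 and 73.1 FPKM in controls and 96.6, 95.6 and 92.8 FPKM in mutants. Its 3 mutant values were close together and all above the controls. The log2 change was 0.40 (SE 0.08, 95% interval 0.22 to 0.59, limma adjusted p = 0.0433), a 1.32-fold rise.

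Both calls lie near the threshold. That of Hoxa2 ended whichever library was left out: leaving out controls 1 to 3 in turn gave adjusted p = 0.14, 0.15 and 0.15, and leaving out mutants 1 to 3 gave 0.057, 0.19 and 0.056. For Hoxa5 the same fits gave adjusted p = 0.12, 0.18 and 0.13 for the controls and 0.047, 0.17 and 0.054 for the mutants, so that the call held in the fit that left out mutant library 1. With all 6 libraries, the calls of Hoxa2 and Hoxa5 also ended with no filter on low values (adjusted p = 0.066 and 0.0507), with library medians set equal (0.0512 and 0.0513) and without the intensity trend (0.064 and 0.069), and that of Hoxa5 with a minimum mean of 5 FPKM (0.05005). After rescaling with no globin or small RNA genes both were further from the threshold (0.012 and 0.014). The direction was the same in each of these fits, and with 1 library left out the log2 changes were 0.42 to 0.55 for Hoxa2 and 0.35 to 0.43 for Hoxa5.

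Promoters are shown for the pair of Hoxa genes that rose together and for Hoxc4, a tested Hoxc gene with no call. RefSeq windows (GRCm38.p6) were at hand for 22 of the 39 members, and the 250 bases before the start are printed 5′ to 3′ on the strand of the gene. Capitals mark matches on either strand to CCAAT, the letters of the CCAAT box, and to TGATNNAT, a HOX and PBX type motif; TATAAA and TAATTA were also searched, and in Hoxa2 and Hoxa5 neither was found. Hoxa2 lies at chr6:52164832-52165081, Hoxa5 at chr6:52204588-52204837 (both on the minus strand) and Hoxc4 at chr15:103034145-103034394 (plus strand).
Hoxa2: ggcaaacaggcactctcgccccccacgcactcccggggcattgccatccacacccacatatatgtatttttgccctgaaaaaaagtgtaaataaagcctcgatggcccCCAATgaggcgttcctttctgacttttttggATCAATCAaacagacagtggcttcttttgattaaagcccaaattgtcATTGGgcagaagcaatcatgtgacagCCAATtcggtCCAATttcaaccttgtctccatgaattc
Hoxa5: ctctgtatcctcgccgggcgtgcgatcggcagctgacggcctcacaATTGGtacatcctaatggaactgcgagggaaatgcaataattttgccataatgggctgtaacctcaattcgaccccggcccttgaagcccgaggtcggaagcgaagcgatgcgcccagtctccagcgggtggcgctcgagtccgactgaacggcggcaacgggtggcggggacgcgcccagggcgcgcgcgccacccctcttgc
Hoxc4: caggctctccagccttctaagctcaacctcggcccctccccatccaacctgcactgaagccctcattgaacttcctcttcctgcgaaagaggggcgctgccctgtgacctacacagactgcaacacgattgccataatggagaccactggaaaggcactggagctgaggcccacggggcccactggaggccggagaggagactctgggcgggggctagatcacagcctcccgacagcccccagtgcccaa

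The Hoxa2 window held 4 CCAAT matches, the nearest beginning 28 bases before the start, and 1 TGATNNAT match beginning 111 bases before it. The Hoxa5 window held 1 CCAAT match, 204 bases before the start, and Hoxc4 had 0 matches to any of the 4 motifs. Among all 32851 windows of this length in the table, 33.8% held CCAAT, 7.68% TGATNNAT, 12.4% TATAAA and 4.84% TAATTA, against 58.3%, 16.7%, 16.7% and 8.33% of the 24 HOX windows. The windows of Hoxa2 and Hoxa5 differed in base composition, with 6 and 28 CG pairs and 46.4% and 63.6% G and C. The median over all windows was 6 CG pairs. A match is a run of letters and not a measured binding site.

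Of the other Hoxa genes, Hoxa3, known from pharyngeal organ formation, measured 5.45, 5.48 and 6.25 FPKM against 8.17, 6.72 and 7.19 FPKM (log2 change 0.31, adjusted p = 0.16), without overlap. Hoxa6 measured 3.47, 3.93 and 2.50 FPKM against 4.11, 4.41 and 5.12 FPKM (log2 change 0.38, adjusted p = 0.21), also without overlap. Hoxa4 measured 28.0, 29.9 and 27.2 FPKM in controls and 38.2, 37.3 and 26.75 FPKM in mutants. Mutant library 3 alone lay below all controls, and the log2 change was 0.24 (adjusted p = 0.36), or 0.40 without that library (adjusted p = 0.059).

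Hoxa3, Hoxa4, Hoxa5 and Hoxa6 share 1 locus in the table with the antisense RNAs Hoxaas2 and Hoxaas3, on chromosome 6 from 52165674 to 52213597 (mm10). Because strand was not kept in the libraries, reads from these genes cannot be told apart from reads of an overlapping antisense RNA. Hoxaas2 measured 2.55, 2.38 and 1.75 FPKM in controls and 3.475, 3.96 and 3.83 FPKM in mutants (log2 change 0.57, adjusted p = 0.070). Hoxaas3 overlapped between the groups, at 9.05, 9.13 and 9.32 against 7.01, 13.45 and 12.0 FPKM. Hotairm1, a long noncoding RNA of the Hoxa cluster, measured 82.15, 68.8 and 110 FPKM in controls and 80.9, 75.2 and 57.3 FPKM in mutants (log2 change -0.27, adjusted p = 0.44), with overlap.

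The Hoxb cluster held 7 tested genes, of which 0 were called by limma (2 had an unadjusted p under 0.05) and 4 had positive changes, with a median log2 change of 0.036. Hoxb2, a hindbrain segment gene and the paralog of Hoxa2, measured 44.2, 44.0 and 43.5 FPKM in controls and 32.5, 41.8 and 48.6 FPKM in mutants. Its controls lay within 1 FPKM of each other and its mutants spread to both sides of them (log2 change -0.12, 95% interval -0.45 to 0.21, adjusted p = 0.66), and the sign of the change turned after rescaling with no globin or small RNA genes and without mutant library 1. The ratio of Hoxa2 to Hoxb2 within a library was 0.449, 0.467 and 0.394 in controls and 0.887, 0.669 and 0.524 in mutants, so that the 3 mutant libraries lay above the controls whatever the scaling of a library.

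Hoxb5, the paralog of Hoxa5, measured 36.7, 32.6 and 35.9 FPKM in controls and 36.2, 46.9 and 52.7 FPKM in mutants. Mutant library 1 lay within the controls and mutant libraries 2 and 3 above them. The log2 change was 0.34 (SE 0.14, adjusted p = 0.20), and it was called without mutant library 1 (0.49, adjusted p = 0.042). The ratio of Hoxa5 to Hoxb5 was 2.04 to 2.06 in the controls and 2.67, 2.04 and 1.76 in mutant libraries 1 to 3, with overlap. Hoxb6 shares its locus with Hoxb5 and the antisense gene Hoxb5os, and it measured 36.9, 31.0 and 42.0 FPKM against 30.4, 38.7 and 44.0 FPKM (log2 change 0.036, adjusted p = 0.92, with a sign that turned without control library 2 or mutant library 3). The ratio of Hoxb5 to Hoxb6 was 0.996, 1.05 and 0.854 in controls and 1.19, 1.21 and 1.20 in mutants, without overlap. Hoxb5os measured 14.95, 7.89 and 9.04 FPKM in controls and 17.2, 18.0 and 12.4 FPKM in mutants (log2 change 0.57, adjusted p = 0.20), with overlap.

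Hoxb1, Hoxb3 and Hoxb4 were low and overlapped between the groups. Hoxb1 measured 2.57, 3.04 and 2.30 FPKM in controls and 3.10, 1.92 and 2.16 FPKM in mutants. Hoxb3 measured 3.12, 2.77 and 2.76 FPKM against 3.08, 2.86 and 3.42 FPKM. Hoxb4 measured 4.74, 5.12 and 4.87 FPKM against 5.50, 4.48 and 5.81 FPKM, and the 95% intervals of these 3 log2 changes ran from -0.50 to 0.28, from -0.19 to 0.36 and from -0.20 to 0.36. Hoxb7 stood at the edge of the measured part of its cluster, with 1.81, 1.51 and 2.56 FPKM in controls and 1.10, 1.12 and 0.552 FPKM in mutants. Its mutants lay below its controls, with a log2 change of -0.62 (SE 0.20, adjusted p = 0.12), 2.12-fold lower by means. The ratio of Hoxb7 to its neighbour Hoxb6 was 0.0491, 0.0486 and 0.0610 in controls and 0.0362, 0.0289 and 0.0125 in mutants.

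The lower gene, Hoxc5, belongs with Hoxa5 and Hoxb5 to paralog group 5. It measured 6.17, 6.77 and 6.34 FPKM in control libraries 1 to 3 and 3.13, 3.41 and 2.57 FPKM in mutant libraries 1 to 3. The groups were far apart, with the highest mutant value well below the lowest control value. The log2 change was -0.89 (SE 0.12, 95% interval -1.17 to -0.60, limma adjusted p = 0.0167). The change was -0.80 to -0.95 when any 1 library was left out, and the call held without mutant library 1 or 3 (adjusted p = 0.028 and 0.033) and ended when control library 1, 2 or 3 was left out (adjusted p = 0.074, 0.10 and 0.075), as well as mutant library 2 (0.071). In the fits where the call ended, the number of calls over all genes fell from 426 to 61, 66, 64 and 52. It was 795 without mutant library 1 and 283 without mutant library 3. The cause of these shifts was not tested.

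Hoxc5 lies on chromosome 15 from 103014008 to 103017429 (mm10), a locus that also holds the microRNA gene Mir615. A mature product is shown because its gene lies inside the locus of Hoxc5, the called Hoxc gene, with the seed (bases 2 to 8) in capitals. It comes from chr15:103014969-103014990 on the plus strand (RefSeq, GRCm38.p6).
mmu-miR-615-3p: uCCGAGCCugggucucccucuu

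Mir615 had no value above 0.01 FPKM in any library, and the same held for Mir10a, Mir10b, Mir196a-1, Mir196a-2 and Mir196b. These rows stand for short gene models in a library of long RNA and do not measure the mature microRNAs.

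Hoxc4, the 3′ neighbour of Hoxc5, was not called. It measured 2.39, 2.73 and 1.88 FPKM in controls and 2.245, 2.375 and 2.01 FPKM in mutants (log2 change -0.05, 95% interval -0.38 to 0.28, adjusted p = 0.88), and the sign of this small change turned after rescaling with no globin or small RNA genes and without control library 2. The ratio of Hoxc5 to Hoxc4 was 2.58, 2.48 and 3.37 in controls and 1.39, 1.43 and 1.28 in mutants. This comparison within a library does not depend on how libraries were scaled. The ratio of Hoxa5 to Hoxc5 was 12.2, 9.92 and 11.5 in controls and 30.9, 28.1 and 36.1 in mutants. Since Hoxa5 was already higher and Hoxc5 lower without overlap, this ratio had to separate and adds no evidence of its own. The pairs given as ratios in this report were picked by hand. How often ratios of other gene pairs separate was not examined.

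**Figure D3:**
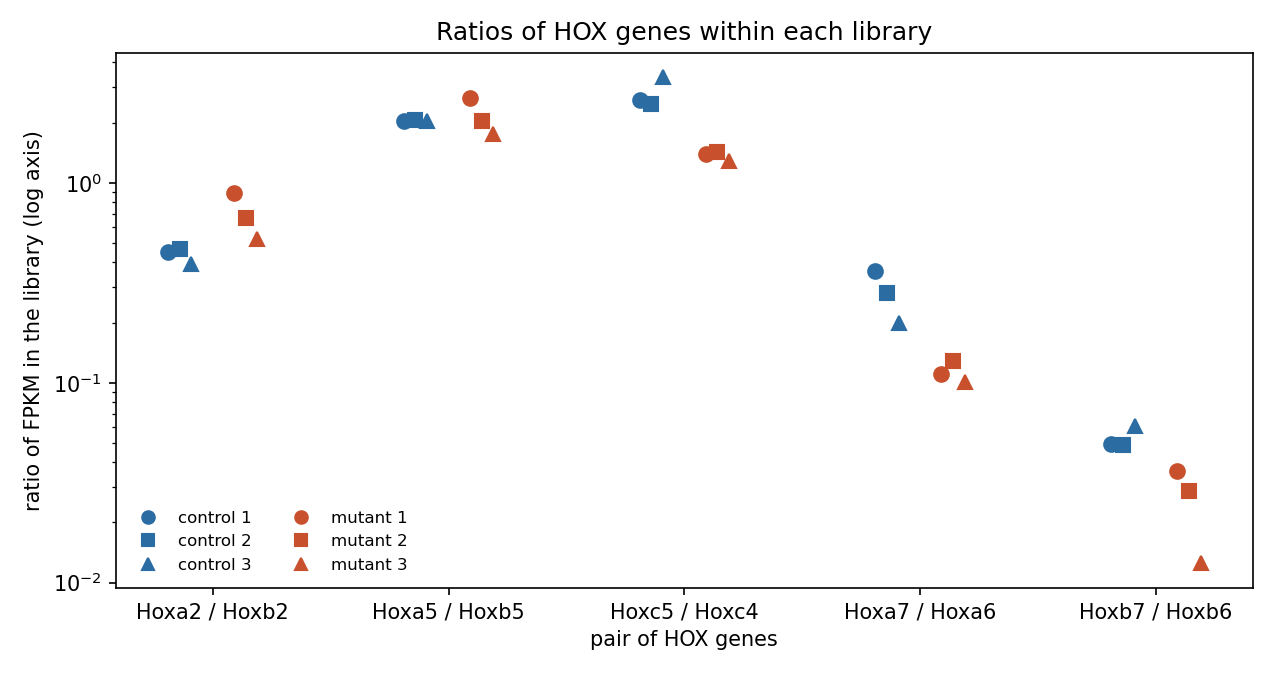
Ratio of FPKM of a pair of HOX genes within each library, on a log axis, for 5 pairs; colours mark the group and symbols the replicate number. Mutants lie above controls for Hoxa2 to Hoxb2, below them for Hoxc5 to Hoxc4, Hoxa7 to Hoxa6 and Hoxb7 to Hoxb6, and overlap for Hoxa5 to Hoxb5.

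In the Hoxd cluster Hoxd3 was the tested gene. It measured 1.99, 3.06 and 1.63 FPKM in controls and 1.42, 2.51 and 0.926 FPKM in mutants (a log2 change of -0.32 with an adjusted p of 0.49), with wide spread in both groups. Hoxd3 shares its locus with Hoxd4, the antisense gene Hoxd3os1 and Mir10b.

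Summed over each cluster, Hoxa reached 140.6, 135.2 and 135.5 FPKM in controls and 189, 183 and 169 FPKM in mutants, and Hoxb 130, 120 and 134 against 112, 138 and 157 FPKM. Hoxa sums did not overlap between the groups and Hoxb sums did. Hoxc summed to 9.50, 10.0 and 8.53 FPKM in controls and 5.44, 6.32 and 4.78 FPKM in mutants, without overlap. Hoxd summed to 3.11, 3.83 and 2.71 FPKM against 3.59, 3.91 and 2.055 FPKM, with overlap. The share of all HOX FPKM held by Hoxa was 48.3% to 50.2% in controls and 50.7% to 60.9% in mutants, and that held by Hoxc was 3.04% to 3.72% and 1.44% to 1.91%. The Hoxa sum is led by Hoxa5 and the Hoxc sum by Hoxc5, so these sums add no evidence of their own.

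**Figure D4:**
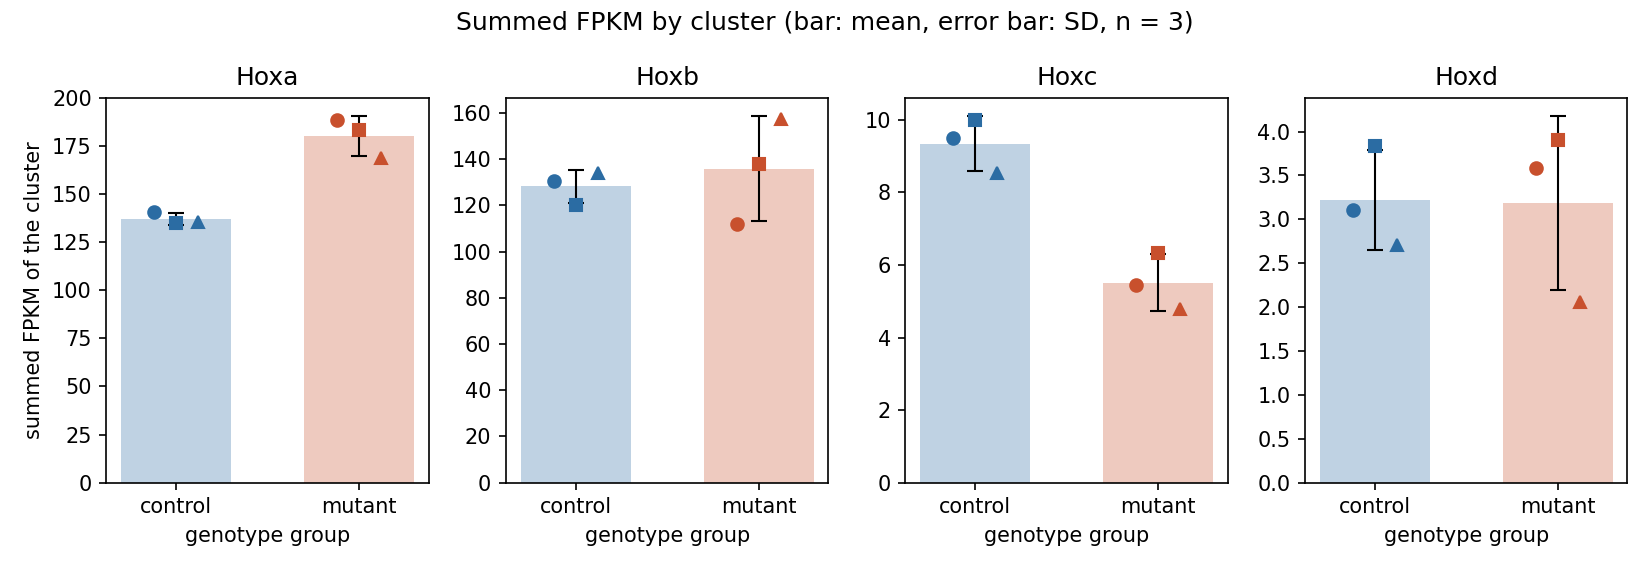
Summed FPKM of each HOX cluster in each library (points), with the group mean (bar, from 0) and SD (n = 3 per group); each panel has its own vertical scale. Mutants lie above controls for Hoxa (168.8 to 188.7 against 135.2 to 140.6 FPKM) and below for Hoxc (4.78 to 6.32 against 8.53 to 10.0 FPKM).

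By paralog number, group 5 held calls in both directions, since Hoxa5 rose and Hoxc5 fell. Hoxb5 was not called, but its log2 change of 0.34 was near the 0.40 of Hoxa5. The summed level of the group was 118.0, 106.5 and 115.3 FPKM in controls and 136, 146 and 148 FPKM in mutants. Paralog group 7 was the group with the lowest ratio of summed levels among those past 1 FPKM, at 3.06, 2.61 and 3.05 FPKM in controls and 1.56, 1.685 and 1.07 FPKM in mutants. Hoxa7, under the filter, measured 1.25, 1.10 and 0.494 FPKM in controls and 0.458, 0.566 and 0.518 FPKM in mutants, so that control library 3 lay within the mutants. The ratio of Hoxa7 to Hoxa6 was 0.361, 0.280 and 0.198 in controls and 0.111, 0.128 and 0.101 in mutants, without overlap.

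The 23 members under the filter included 5 at the floor in all 6 libraries, Hoxa11, Hoxb13, Hoxc12, Hoxd11 and Hoxd12. Hoxc6 measured 0.917, 0.467 and 0.312 FPKM in controls and 0.01, 0.294 and 0.0384 FPKM in mutants, where 0.01 is the floor. Hoxd8 measured 0.549, 0.390 and 0.732 FPKM in controls and 1.69, 0.950 and 0.811 FPKM in mutants. Neither gene overlapped between the groups, and with all genes above the floor in the fit their limma adjusted p-values were 0.19 and 0.23, with 0.32 for Hoxa7.

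Trunk and tail genes of paralog groups 9 to 13 were measured close to the floor of the table. Their highest value was 0.260 FPKM, and 2 to 6 of the 16 were above the floor in a control library and 7 to 11 in a mutant library, without overlap. Over the whole table, genes at the floor numbered 7119 to 7829 in controls and 7041 to 7837 in mutants, with overlap. The summed level of the 16 genes was 0.587, 0.416 and 0.161 FPKM in controls and 0.641, 1.06 and 0.8385 FPKM in mutants. Hoxa13 was at the floor in the 3 controls and measured 0.211, 0.0412 and 0.241 FPKM in the mutants, and Hoxc10 was at the floor in the controls and measured 0.0669, 0.0527 and 0.0935 FPKM in the mutants. With no filter their unadjusted p-values in limma were 0.027 and 0.037 and their adjusted p-values 0.20 and 0.24, so neither was called. The ratio of Hoxc10 to Hoxd10 was 0.962, 0.962 and 0.963 in the 3 mutant libraries. Values this close to the floor can rest on a few fragments. Fragment counts are not given, so this ratio is no measure of shared regulation. The number of the 16 genes above the floor was 6, 6 and 2 in control libraries 1 to 3, at relative depths of 1.0, 0.807 and 0.532, and 7, 11 and 8 in mutant libraries 1 to 3, at 0.506, 1.28 and 1.07; the part of depth in these counts was not tested. Hoxa9, Hoxb9, Hoxd9 and Hoxd13, which were above the floor in at least 2 control libraries and all 3 mutant libraries, overlapped between the groups. Of the remaining low paralog members, Hoxd1 measured 0.0694 and 0.0863 FPKM in control libraries 1 and 2 and was at the floor elsewhere, and Hoxd4 ranged from 0.0902 to 0.240 FPKM over the 6 libraries. Hoxb8 measured 0.281, 0.116 and 0.176 FPKM in controls and 0.0925, 0.0548 and 0.1525 FPKM in mutants, with overlap, and Hoxc8 was above the floor in 2 mutant libraries, at up to 0.0737 FPKM.

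Genes that act with or on HOX genes were examined in the same fit, and in 5 lists none of the tested members was called by limma. In this fit 2935 of the 12742 tested genes had an unadjusted p under 0.05. Of the 9 TALE cofactor genes 0 were called, 2 had an unadjusted p under 0.05, and the median log2 change was 0.22. Meis2 measured 13.3, 15.6 and 13.9 FPKM in controls and 20.8, 18.6 and 17.45 FPKM in mutants (adjusted p = 0.093). Meis3 (log2 change 0.25) and Pbx4 (log2 change -0.31) overlapped between the groups. Their unadjusted p-values in limma were 0.083 and 0.094 and their adjusted p-values 0.28 and 0.30.

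Among 14 inducers of HOX genes, such as CDX factors and retinoic acid receptors, 8 were tested and 0 called (1 at an unadjusted p under 0.05). Gdf11, a secreted factor of axial patterning, measured 1.14 and 1.73 FPKM by means (adjusted p = 0.24), Kat6a 3.90 and 3.17 FPKM (adjusted p = 0.27) and Rarg 7.35 and 8.43 FPKM (adjusted p = 0.42). Of 29 Polycomb and trithorax genes, which keep HOX genes off or on, 27 were tested, 0 were called and 5 had an unadjusted p under 0.05. Ezh2, the histone methyltransferase of the second Polycomb complex, measured 47.6, 51.0 and 48.8 FPKM in controls and 44.2, 41.9 and 36.1 FPKM in mutants (log2 change -0.27, adjusted p = 0.16). Rbbp4 (log2 change -0.23) and Cbx2 (-0.35) had adjusted p-values of 0.14 and 0.18. Over the 27 tested genes of this list, 13 changes were positive and 14 negative, with a median log2 change of -0.058.

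Genes beside the clusters were measured in 20 of 23 listed cases, with 15 tested, 0 called and 2 at an unadjusted p under 0.05. Calcoco1, listed as a neighbour of Hoxc, had a log2 change of 0.64 (19.55 against 30.85 FPKM by means, adjusted p = 0.067), and Mtx2, a neighbour of Hoxd, one of -0.28 (145 against 119.5 FPKM, adjusted p = 0.15). Cbx5 (log2 change -0.32) and Skap2 (0.24) had adjusted p-values of 0.31 and 0.34. Of 15 noncoding RNA genes of the clusters found in the table, 4 were tested, 0 were called and 2 had an unadjusted p under 0.05, and 9 were at the floor in all 6 libraries.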

How the data were processed

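RNA-seq libraries of 6 embryonic lung samples, 3 per genotype, were given as 1 table of 24341 genes. The deposited values are FPKM per gene, and the submitters' processing notes name TopHat, Bowtie2, Cufflinks and the mm10 (GRCm38) build, with tool versions and gene annotation not stated in the sources used here. No strand is marked by the library kit. Values not detected are listed at a floor of 0.01 FPKM, counted as 0 in sums, and 3 genes with a failure mark were left out. Depth relative to control library 1 was taken from values under 0.3 FPKM, since the table gives no counts.

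A minimum of 1 FPKM, averaged across the 6 libraries, left 12742 genes, which were tested on log2(FPKM + 1) in limma 3.58.1 (R 4.3.3) with an intensity trend and no covariate, and p-values were adjusted over all of them by the Benjamini-Hochberg method, with 0.05 as the threshold. The fit was tested on simulated data. Intervals are 95%. Single genes also had a two-sided exact permutation test. Figures were drawn in Python 3.11.15 with matplotlib 3.10.9. Alternatives were other pseudocounts, filters, scalings, variance steps and thresholds, a replicate block, and leaving out libraries.

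HOX members were named by symbol, and some genes that the naming rule picked, a HOX member among them, are not reported here by name or drawn but stay in the counts, medians and sums. From each pathway list up to 4 genes with the smallest p were named, and cell type lists were given by counts and sums with 2 of their called members, although the naming rule would have named all of them. The members and lists were chosen with earlier results of these data known.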

Additional observations from a re-analysis of the deposited data

How the results depend on the processing

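The HOX genes called higher, 2 as reported, numbered 1 with a minimum mean of 5 FPKM, and 0 with no filter, with library medians set equal, without the intensity trend, with the replicate block and without both shallowest libraries (control library 3 and mutant library 1, an alternative chosen after seeing the data), and 0 to 2 when 1 library was left out. That count was 3 after rescaling with no globin or small RNA genes and at an adjusted p under 0.1, and 2 with the other pseudocounts, upper-quartile scaling, quantile normalization and robust empirical Bayes. The HOX genes called lower, 1 as reported, numbered 0 with a minimum mean of 5 FPKM (Hoxc5 was then not tested), with the replicate block and without both shallowest libraries, and 0 to 1 when 1 library was left out, and 1 under every other alternative run. Over all genes, 218 higher calls became 105 with no filter, 841 after rescaling with no globin or small RNA genes, 576 at an adjusted p under 0.1, 20 with the replicate block, 17 without both shallowest libraries and 17 to 362 when 1 library was left out. The 208 lower calls became 138 with a minimum mean of 5 FPKM, 137 with no filter, 562 at an adjusted p under 0.1, 32 with the replicate block, 38 without both shallowest libraries and 35 to 433 when 1 library was left out. The cause of these differences was not tested.

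The median log2 change of tested HOX genes, 0.081, was 0.31 with a minimum mean of 5 FPKM, 0.18 after rescaling with no globin or small RNA genes, and 0.023 to 0.15 when 1 library was left out. That scaling shifted the median of all genes by 0.114 on the log2 scale and moved the lower share of all calls from 48.8% to 17.1%. The sign turned for Hoxb2 (0.011 after rescaling with no globin or small RNA genes, 0.037 without mutant library 1 in a range of -0.25 to 0.037 when 1 library was left out, 0.030 without both shallowest libraries), Hoxb6 (-0.076 without control library 2, -0.080 without mutant library 3, in a range of -0.080 to 0.18) and Hoxc4 (0.043 after rescaling with no globin or small RNA genes, 0.036 without control library 2 in a range of -0.15 to 0.036). Same-numbered libraries did not deviate together (correlations across genes of -0.0893, -0.0778 and -0.0263). The labels do not say whether the numbers pair libraries, and correlations of deviations from means of 3 libraries cannot exclude it. With the replicate block the adjusted p was 0.13 for Hoxa2, 0.16 for Hoxa5 and 0.086 for Hoxc5.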

Other observations

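The mutant libraries differed among themselves in how HOX expression was divided between clusters. Mutant library 1 had the highest summed level of the Hoxa genes (188.7 FPKM) and the lowest of the Hoxb genes (112.1 FPKM) of the 3, and mutant library 3 the lowest of the Hoxa genes (168.8 FPKM) and the highest of the Hoxb genes (157.4 FPKM). Hoxb2, Hoxb5 and Hoxb6 each were lowest in mutant library 1 and highest in mutant library 3. The share of HOX FPKM held by Hoxb was 36.2% in mutant library 1, 41.6% in mutant library 2 and 47.3% in mutant library 3, against 44.6% to 47.7% in controls. Mutant library 1 was the shallowest of the 6, at 0.506 of the depth of control library 1, and the part of depth in these differences was not tested.

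Paralog group 8 summed to 0.830, 0.5055 and 0.908 FPKM in controls and 1.785, 1.025 and 1.04 FPKM in mutants, without overlap, and most of it was Hoxd8. Of the long noncoding RNAs of the clusters, Hotair and Hottip had no value above 0.01 FPKM, the floor, in any library.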
